A study of Mus musculus with 8 samples.

Results

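Bile duct ligation (BDL) was compared with no ligation in mice with intact Hmox1, the gene for the heme-degrading enzyme heme oxygenase-1 (HO-1). The comparison holds 4 of the series' 8 libraries, chosen by their labelled genotype and treatment: 2 libraries from LysM-Cre:Ribotag liver after BDL and 2 from LysM-Cre:Ribotag liver labelled control, called wild type here. The BDL label gives 17 days after surgery, and the control label does not say whether the control mice had sham surgery. All 4 libraries share the LysM-Cre and RiboTag alleles: Cre made from the Lyz2 locus, which is active in myeloid cells, switches on an epitope-tagged ribosomal protein, so that ribosomes with their RNA can be pulled from whole tissue. The series' design text speaks of ribosome-associated RNA, whereas the labels give the molecule as total RNA and describe no pull-down step. Strain and age are not stated. The other 4 libraries, LysM-Cre:Hmoxflfl:Ribotag with and without BDL, were in the same fit and serve below as a second BDL experiment. The name used below is the libraries labelled HO-1 deleted, since their Hmox1 RNA was no lower than that of wild type. The labels give 2 libraries a group and do not say that they came from separate animals. The 2 wild-type BDL libraries differed in sex by their Xist and Ddx3y RNA, given below, and hence came from separate animals. For the other groups this was not tested, and the spread within them may be technical. The p-values measure the spread between these libraries.

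In bile duct ligation the common bile duct is tied, so that bile made by hepatocytes backs up into the liver. The model is known for cholestasis, a growth of small bile ducts called the ductular reaction, scarring around the portal tracts, and an influx of monocytes and neutrophils. Hepatocytes are known to answer bile acid overload by making fewer bile acids, importing fewer of them from blood and exporting more of them back to it. In mice many hepatocyte genes are also set to a male or a female level by the pattern of growth hormone release, and this pattern is known to be lost in several kinds of liver damage.

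Total counts were 23.3 M and 23.7 M in the controls and 33.3 M and 12.96 M after BDL. The ribosomal RNA precursor RN45S took 10.3% to 37.1% of them, which left 10.5 M to 21.0 M counts for other genes. BDL replicate 1 came from a female by its Xist (667 CPM) and Ddx3y (0 CPM) levels, and the other 3 wild-type libraries came from males, so that sex and BDL are partly confounded. Without that library 1242 genes were called higher and 757 lower after BDL, and 1672 of these 1999 genes were among the 2607 called with all libraries. Levels here and below are CPM, counts as a share of each library's TMM-scaled total, which compares libraries and not genes of different length. Log2 fold changes are BDL minus control, with the standard error of the fit. The labels call the cells myeloid, but hepatocyte RNA was far more abundant: the 5 hepatocyte markers Alb, Apoa1, Ttr, Cps1 and Hnf4a summed to 25330 to 31100 CPM, the 9 myeloid markers to 123 to 328 CPM and the 5 bile duct markers to 3.61 to 50.8 CPM. None of the markers of any cell type checked was at 0 in all 4 libraries. In such bulk RNA, fewer cells of a type and less RNA per cell cannot be told apart.

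After BDL, 1675 genes were higher and 932 lower among the 14147 tested, which is 11.8% and 6.59% (18.4% in either direction, 2607 genes). A call is a Benjamini-Hochberg adjusted p under 0.05 in edgeR's quasi-likelihood test over all 8 libraries. Of the 2607 genes, 2134 (81.9%) differed by more than 2-fold, and 1 had overlapping library values. The median log2 fold change of all tested genes was 0.02. With the authors' FPKM on a log2 scale in limma, 156 genes were higher and 298 lower at a pseudocount of 1, so that 34.4% of calls were higher instead of 64.3%. FPKM shifted all genes by a median of -0.32 and plain library totals by -0.14 (log2), and fold changes of low genes are understated on the FPKM scale. Without control replicate 1 the calls fell to 553 higher and 328 lower, and without control replicate 2 to 808 and 467. Where a refit without 1 library moved the count of a list's calls by over 1.5 times, the refit's counts follow the list's own, with each library left out alone. Each gene named below kept its call in all 4 fits that leave out 1 library, unless the libraries that end it are given. For each gene given as called, both BDL libraries lay on the same side of both controls, as in all but 1 of the 2607 called genes. Over all 14147 tested genes, called or not, both BDL libraries lay above both controls for 4456 and below both for 4219. Lack of overlap alone therefore says little.

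**Figure D1:**
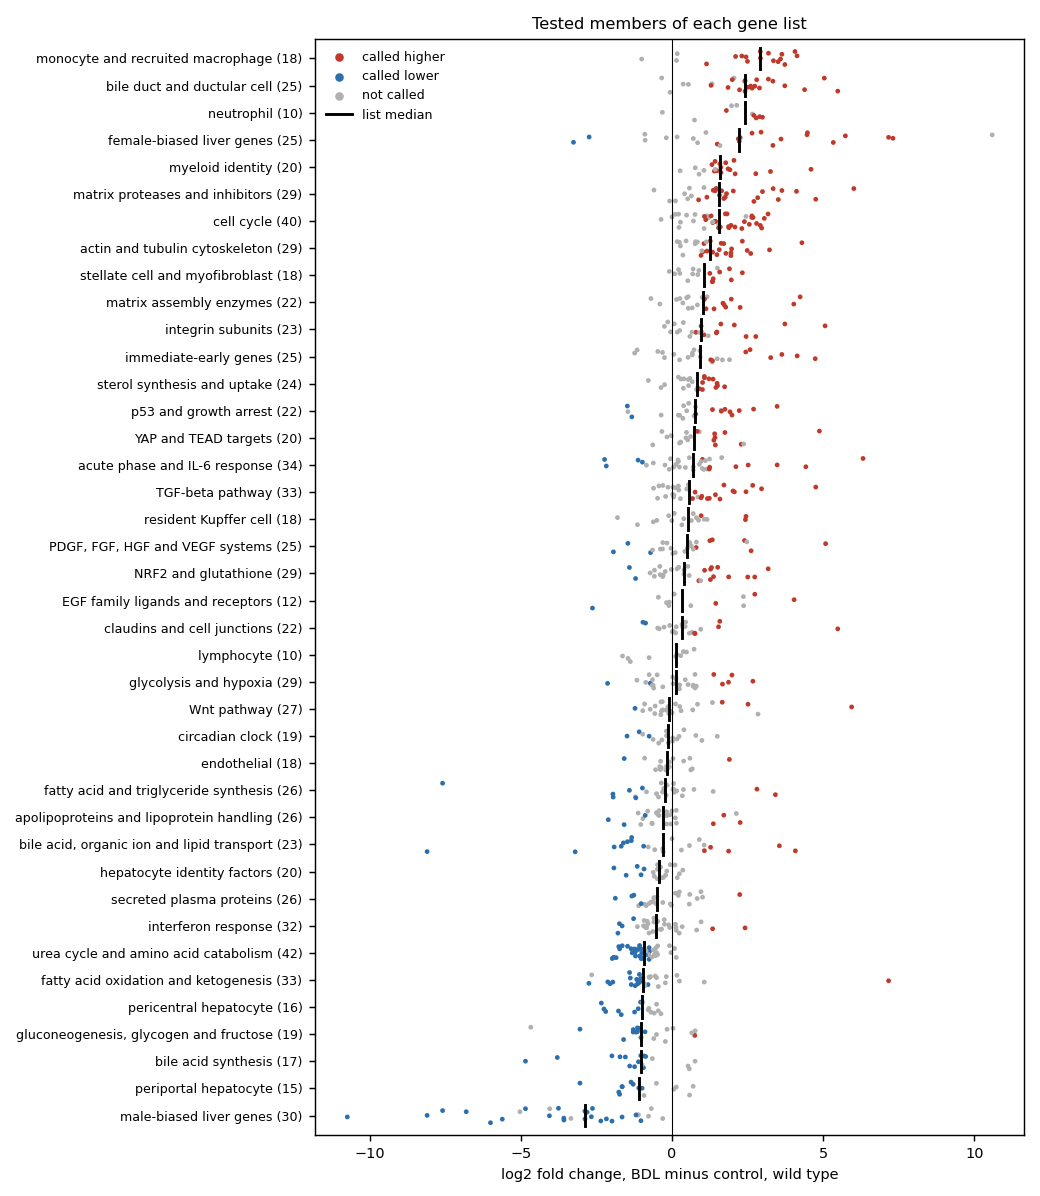
Each point is 1 tested gene of a list, placed by its log2 fold change (BDL minus control, wild type), with calls in red (higher) and blue (lower), uncalled genes in grey and the list median as a black bar. The number of tested members stands behind each name. The 30 male-biased liver genes all lie below 0, with a median of -2.88, and the monocyte list lies highest, with a median of 2.92.

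The plot of the 40 gene lists gives the outline of the response. The lists hold 944 genes, of which 894 passed the filter on low counts. Of those 894, 251 were higher and 141 lower. Of all tested genes 11.8% were higher and 6.59% lower, and these shares are given for scale beside the counts of each list below. Lists and their members were chosen with earlier results of these data known. An excess of a list over these shares may be partly built in by that choice and was not tested. Most lists of hepatocyte metabolism lie on the low side, with sterol synthesis on the high side, and lists of bile duct cells, monocytes, matrix turnover, cell division and cytoskeleton lie on the high side.

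Among genes averaging a log2 CPM of 2 or more, the largest rise was that of Lcn2, which encodes lipocalin-2, a carrier that binds bacterial iron chelators. Lcn2 was at 5.05 and 5.14 CPM in the controls and 462 and 349.9 CPM after BDL (log2 fold change 6.31 ± 0.55, adjusted p = 8.16e-05). The 12 genes with the largest rises were chosen among called genes without overlap, so that their BDL libraries lie above both controls by that choice. Mybl1, a transcription factor of the MYB family, was at 0.659 and 0.804 CPM in the controls and 31.2 and 40.3 CPM after BDL (log2 fold change 5.60 ± 0.32, adjusted p = 3.34e-06). Gstm3, a glutathione transferase, was at 5.15 and 6.17 CPM in the controls and 170.2 and 174 CPM after BDL (log2 fold change 4.93 ± 0.26, adjusted p = 1.78e-06). The controls of Mybl1 and Gstm3 were close to each other, and so were the BDL libraries. Others of the 12 were the endotoxin co-receptor gene Cd14, the lipid-binding protein gene Osbpl3, the acute-phase gene Orm2, the collagen gene Col1a1, the phosphatase-like gene Mtmr11, the growth factor gene Nrg1, the dynein gene Dnah1 and the calcium-binding protein gene Cib3, with log2 fold changes of 3.995 to 4.59. In Cd14 and Osbpl3 the female BDL library was the higher one: Cd14 was at 33.1 and 15.3 CPM and Osbpl3 at 52.0 and 24.1 CPM in BDL replicates 1 and 2.

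Among the 12 largest falls were hepatocyte genes of steroid and lipid handling. Slco1a1, which imports organic anions and bile acids, was at 294 and 229 CPM in the controls and 0.760 and 1.20 CPM after BDL (log2 fold change -8.10 ± 0.39, adjusted p = 8.64e-07). Sult2a8, a sulfotransferase of the family that sulfates bile acids and steroids, was at 254 and 237 CPM in the controls and 0.994 and 1.26 CPM after BDL (log2 fold change -7.79 ± 0.36, adjusted p = 8.64e-07). Elovl3, which elongates very long fatty acids, was at 130.2 and 178 CPM in the controls and 0.468 and 1.26 CPM after BDL (log2 fold change -7.59 ± 0.50, adjusted p = 1.28e-05). Of these 3 transcripts about 1 CPM or less was left in each BDL library, the male one included. Mup3 and Mup21, which encode pheromone-binding major urinary proteins, fell by 6.01 and 6.81 on the log2 scale, although reads of this gene family may be split between near-identical copies. Car3, an abundant carbonic anhydrase of hepatocytes, was at 519 and 493 CPM in the controls and 36.4 and 18.4 CPM after BDL, and its call (adjusted p = 0.00655) was lost without control replicate 1 (adjusted p = 0.0595). The other genes among the 12 largest falls were Mup7, Mup9, Serpina4-ps1, Cyp7b1, Sult5a1 and AW549542, of which Cyp7b1 is described below. The call of Mup9 was lost without control replicate 1 (adjusted p = 0.113), control replicate 2 (adjusted p = 0.0711), BDL replicate 1 (adjusted p = 0.0981) and BDL replicate 2 (adjusted p = 0.0999). The call of Mup7 was lost without control replicate 1 (adjusted p = 0.192) and control replicate 2 (adjusted p = 0.144), and that of Serpina4-ps1 without BDL replicate 1 (adjusted p = 0.054).

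**Figure D2:**
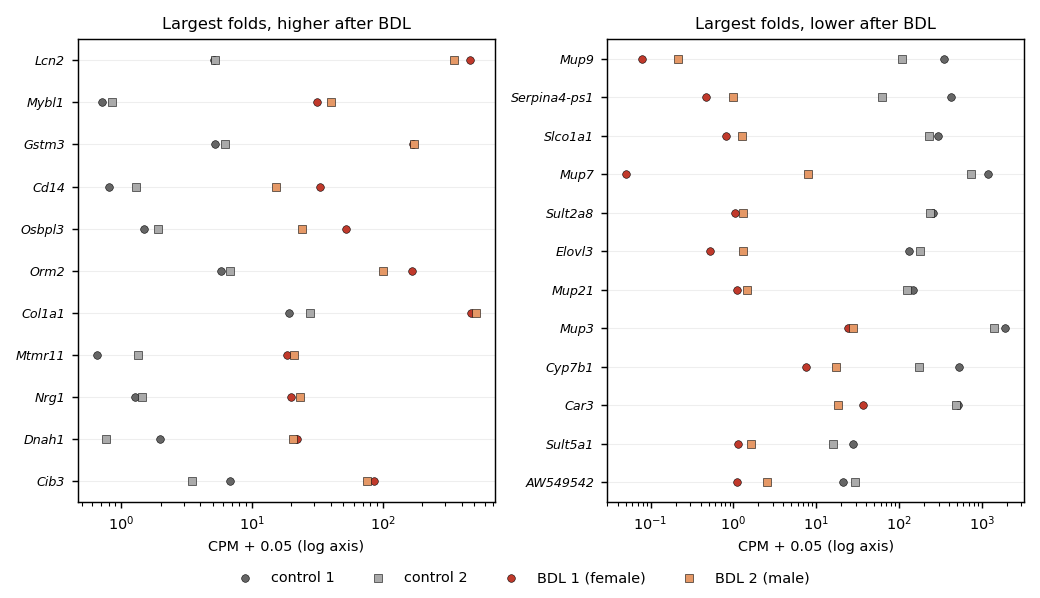
Levels (CPM + 0.05, log axis) of 11 of the 12 genes with the largest rises and the 12 with the largest falls, 1 point per library. Only genes without overlap between the groups were eligible, so that each BDL point lies apart from both controls by choice. Lcn2 went from about 5 to about 350 CPM or more, and Slco1a1 from 229 CPM or more to near 1.

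The promoters of 6 genes are shown because the genes differed by some of the largest folds and hold pairs of close relatives: Lcn2 with the orosomucoid genes Orm2 and Orm3, which were higher, and Slco1a1 with Mup3 and Mup21, which were lower. Each run is the 250 bases before a RefSeq start of the gene, 5′ to 3′ on the gene's strand, in build GRCm38.p6. For Orm3 that start lies downstream of the gene's first base at 63356069, so that the end of its run is inside the gene. Capitals mark matches on either strand to any of 9 motifs, which are spelled out after the sequences.
Lcn2 (chr2:32387740-32387989, minus strand): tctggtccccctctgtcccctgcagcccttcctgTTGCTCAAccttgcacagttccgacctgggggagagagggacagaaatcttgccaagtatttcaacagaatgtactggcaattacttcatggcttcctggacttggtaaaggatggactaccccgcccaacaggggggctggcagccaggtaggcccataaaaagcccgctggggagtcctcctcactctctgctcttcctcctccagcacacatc
Orm2 (chr4:63362199-63362448, plus strand): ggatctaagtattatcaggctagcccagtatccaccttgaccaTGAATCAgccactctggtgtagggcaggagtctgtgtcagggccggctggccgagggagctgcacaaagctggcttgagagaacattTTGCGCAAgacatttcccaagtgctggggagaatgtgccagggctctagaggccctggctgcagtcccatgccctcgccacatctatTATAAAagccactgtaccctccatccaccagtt
Orm3 (chr4:63355908-63356157, plus strand): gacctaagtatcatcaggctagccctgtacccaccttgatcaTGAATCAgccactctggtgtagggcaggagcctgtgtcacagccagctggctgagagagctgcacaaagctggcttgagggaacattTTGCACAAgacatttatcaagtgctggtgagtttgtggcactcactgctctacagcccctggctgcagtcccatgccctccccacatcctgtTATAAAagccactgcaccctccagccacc
Slco1a1 (chr6:141946963-141947212, minus strand): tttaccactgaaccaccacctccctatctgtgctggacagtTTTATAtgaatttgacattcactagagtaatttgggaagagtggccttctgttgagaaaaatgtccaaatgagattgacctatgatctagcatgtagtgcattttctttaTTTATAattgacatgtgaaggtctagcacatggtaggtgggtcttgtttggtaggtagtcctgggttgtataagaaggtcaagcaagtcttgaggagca
Mup3 (chr4:62087318-62087567, minus strand): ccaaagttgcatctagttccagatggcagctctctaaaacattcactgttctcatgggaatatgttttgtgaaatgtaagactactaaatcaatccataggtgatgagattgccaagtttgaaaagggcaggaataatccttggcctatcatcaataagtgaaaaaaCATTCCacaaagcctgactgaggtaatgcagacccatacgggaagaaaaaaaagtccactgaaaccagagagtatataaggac
Mup21 (chr4:62150842-62151091, minus strand): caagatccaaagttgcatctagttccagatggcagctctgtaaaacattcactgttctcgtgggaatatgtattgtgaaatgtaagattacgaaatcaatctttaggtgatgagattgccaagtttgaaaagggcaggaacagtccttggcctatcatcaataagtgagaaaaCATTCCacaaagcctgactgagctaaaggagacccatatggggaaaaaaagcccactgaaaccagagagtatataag

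The motifs searched were AP-1 (TGANTCA), which answers growth and stress signals, and C/EBP (TTGCNNAA), a factor family of liver and myeloid cells. The others were TEAD (GGAATG), the TATA box (TATAAA) of the basal machinery, the hepatocyte factor HNF4 (CAAAGTCCA), the growth hormone effector STAT5 (TTCNNNGAA), and the longer motifs of NF-kB, HNF1 and the interferon-stimulated element. No motif match of one kind overlapped that of another in the 6 promoters. Orm2 and Orm3 share an AP-1 match, a C/EBP match and a TATA box at nearly the same places, 207 and 208 bases, 120 and 121 bases, and 33 and 29 bases before the start. At the best single shift without gaps, 67.5% of 249 bases are identical between them. The TATA boxes are offset otherwise than the other matches, so that this ungapped share may understate the likeness. In Lcn2 the single match is a C/EBP motif that begins 216 bases before the start. Mup3 and Mup21 are identical at 84.0% of 244 bases, also at the best single shift without gaps, and each holds 1 TEAD match on the other strand. Slco1a1 holds 2 TATA box matches, both on the other strand and far from the start. The table of RefSeq promoters holds 10975 of the 14147 tested genes. Across these, 4.6% hold the AP-1 motif, against 7.51% of the 1278 higher and 6.62% of the 725 lower genes. The NF-kB motif was in 0.346% of all, 0.939% of the higher and 0.276% of the lower promoters. The C/EBP motif was in 7.89%, 8.61% and 10.3%, the TEAD motif in 10.5%, 12.5% and 12.4%, and the TATA box in 6.84%, 8.76% and 10.5%, in the same order. These shares are a description of letters in a short window and carry no test. Of the male-biased genes described next, 22 had a promoter in the table, of which 18.2% hold the AP-1 motif, 18.2% the TEAD motif, 13.6% the TATA box and 9.09% each the C/EBP and STAT5 motifs. The STAT5 motif, added after results had been seen because growth hormone acts through STAT5, is in 6.17% of all promoters, 5.56% of the higher and 5.66% of the lower ones.

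Male-biased genes of the liver fell. These are the hepatocyte genes that adult male mice normally make in larger amounts than females. Of 31 listed members 30 were in the count table and passed the filter, of which 22 were called lower and 0 called higher. All 30 had negative log2 fold changes, with a median of -2.88 against 0.02 for all genes. Of the 22 calls, 16 held without each library in turn, and 18 to 21 members were called in those fits. Summed over the list, the level was 14165 and 9334 CPM in the controls and 1959 and 2919 CPM after BDL. In the male BDL library taken alone 28 of 30 members were below both controls, and with the female library left out 21 members were called lower. In the female library all 30 were below both controls. Among all 14147 tested genes, both BDL libraries lay below both controls in 4219, and single libraries were not counted. A single library lies below both controls in at least as many genes, so that this background is too low for the single-library counts.

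Among the enzymes of this group, the steroid dehydrogenase gene Hsd3b5 was at 139.7 and 76.5 CPM in the controls and 0 and 0.164 CPM after BDL (log2 fold change -10.74 ± 0.63, adjusted p = 7.21e-06). Cyp7b1, an oxysterol hydroxylase of the alternative route of bile acid synthesis, was at 531 and 176 CPM in the controls and 7.39 and 17.4 CPM after BDL (log2 fold change -4.85 ± 0.65, adjusted p = 0.0017). The glucuronosyltransferase gene Ugt2b1 was at 459.9 and 284 CPM in the controls and 32.7 and 29.6 CPM after BDL (log2 fold change -3.58 ± 0.54, adjusted p = 0.00185). Hsd3b5 was at or near 0 in both BDL libraries, whereas Cyp7b1 and Ugt2b1 kept a low level. Nudt7, a peroxisomal coenzyme A hydrolase, went from 408 and 191 to 14.6 and 29.9 CPM, and the glutathione transferase gene Gstp1 from 370.3 and 238 to 38.7 and 43.6 CPM, with log2 fold changes of -3.76 ± 0.45 and -2.89 ± 0.33. Egfr, the receptor for epidermal growth factor, which is more abundant in male liver, was at 2394 and 734 CPM in the controls and 218 and 287 CPM after BDL, and its call (adjusted p = 0.00519) was lost without control replicate 1 (adjusted p = 0.0554). In some members the 2 BDL libraries stood apart: Cyp2d9 was at 675 and 538 CPM in the controls and 39.0 and 198 CPM after BDL, the lower BDL value being that of the female (log2 fold change -2.36 ± 0.66, adjusted p = 0.0378). Its call was lost without control replicate 1 (adjusted p = 0.184) and control replicate 2 (adjusted p = 0.109). The 8 members that were not called were C6, C8a, Ces2e, Cyp4a12a, Cyp4a12b, Gstp2, Mup20 and Serpina1e. Of these, the urinary protein gene Mup20 was at 1424 and 588 CPM in the controls and 278 and 653 CPM after BDL, with overlapping groups. Gstp2, a near copy of Gstp1, was at 1.38 and 1.93 CPM in the controls and 0.760 and 2.02 CPM after BDL, also with overlap, and changed sign without the female library (log2 fold change 0.28). For Serpina1e the controls alone were at 55.6 and 1120.1 CPM.

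Of the female-biased liver genes, more were higher than lower. Of 37 genes, 25 passed the filter on low counts, and of those 14 were higher and 2 lower, with a median of 2.22. Without the female BDL library this median was 1.40. Refits gave 7 higher without control replicate 1, 6 higher without control replicate 2 and 5 lower without BDL replicate 1. BDL replicate 1 being female, the libraries are given apart. Of the 37 genes, 20 were above both controls in the male BDL library, against 28 in the female one, and 8 and 5 were below both controls. Among all 14147 tested genes, both BDL libraries lay above both controls in 4456 and below both in 4219, and single libraries were not counted. These numbers are again too low a background for counts from a single library. Ntrk2, the receptor for brain-derived neurotrophic factor, was at 0.408 and 0.482 CPM in the controls and 26.0 and 9.99 CPM after BDL (log2 fold change 5.33 ± 0.48, adjusted p = 8.06e-05). Atp6v0d2, a subunit of the proton pump of vesicles, was at 0.283 and 0.257 CPM in the controls and 23.1 and 5.79 CPM after BDL (log2 fold change 5.73 ± 0.80, adjusted p = 0.00176). The magnesium transporter gene Nipal1 was at 0.157 and 0.514 CPM in the controls and 8.48 and 6.55 CPM after BDL (log2 fold change 4.48 ± 0.55, adjusted p = 0.000415). In all 3 the male BDL library, given last, was well above both controls, and in Ntrk2 and Atp6v0d2 it was below the female one. Rtn4, which shapes the endoplasmic reticulum, was at 15.7 and 16.0 CPM in the controls and 70.2 and 77.7 CPM after BDL, with no such gap between the BDL libraries (log2 fold change 2.22 ± 0.25, adjusted p = 0.000314). The estrogen sulfotransferase gene Sult1e1 was at 0.283 and 0.193 CPM in the controls and 1.26 and 4.80 CPM after BDL, higher in the male than in the female BDL library (log2 fold change 3.60 ± 0.78, adjusted p = 0.011). Its call was lost without control replicate 1 (adjusted p = 0.0833) and control replicate 2 (adjusted p = 0.0876).

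A pair of female-biased genes was above the controls in the female library and not in the male one. Cux2, a transcription factor of female liver, was at 1.04 and 1.38 CPM in the controls and 5.87 and 1.15 CPM after BDL, and Cyp2a4, a steroid hydroxylase, at 27.1 and 35.0 CPM in the controls and 97.6 and 2.95 CPM after BDL. Neither was called (adjusted p = 0.168 and 0.782), and the male BDL library lay within or below the controls. Without the female library the log2 fold changes were -0.085 and -3.40. Of the 12 genes that did not pass the filter, 8 were above both controls in the female and 2 in the male BDL library. The 2 lower calls were Cyp2b10 and Gna14. Cyp2b10, a drug-induced monooxygenase, fell to 0.584 and 1.91 CPM from 10.4 and 12.2 CPM (log2 fold change -3.26 ± 0.52, adjusted p = 0.0019). The G protein gene Gna14 was at 4.21 and 4.31 CPM in the controls and 0.409 and 0.928 CPM after BDL (log2 fold change -2.74 ± 0.46, adjusted p = 0.0022). The libraries labelled HO-1 deleted, all from males, hold no female library: 25 of the 30 male-biased genes were lower and 0 higher after BDL (median -3.68), and 14 of the 25 female-biased genes were higher and 1 lower (median 1.97). The background there was 15.1% of genes called higher and 12.4% called lower.

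**Figure D3:**
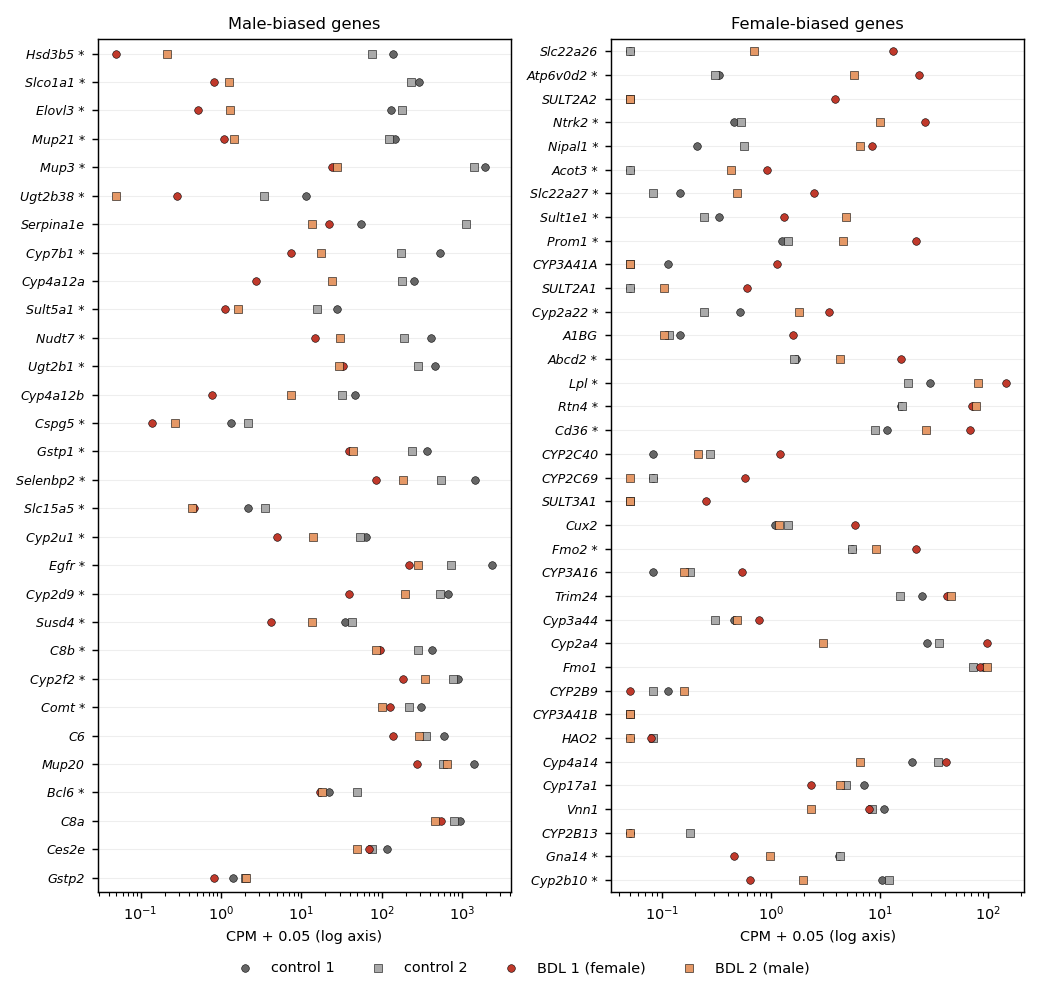
Levels (CPM + 0.05, log axis) of 30 male-biased (left) and 36 of the 37 female-biased (right) liver genes, 1 point per library, with an asterisk for called genes and capitals for genes that did not pass the filter on low counts. On the left the male BDL library lies below both controls for 28 of 30 genes. On the right it lies above both controls for 19 of the 36 drawn. The same share over all tested genes was not counted for a single library.

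Genes of bile acid synthesis fell. Of 17 members, 12 were lower and 0 higher (median -1.04), and 5 of the calls held without each library. Refits gave 5 lower without control replicate 1 and 6 lower without control replicate 2 or BDL replicate 2. Hsd3b7, which acts early in both routes of synthesis, was at 248 and 254 CPM in the controls and 95.9 and 76.1 CPM after BDL (log2 fold change -1.55 ± 0.25, adjusted p = 0.00201). Akr1c6, a hydroxysteroid dehydrogenase of the list, was at 261 and 223 CPM in the controls and 84.3 and 62.1 CPM after BDL (log2 fold change -1.72 ± 0.25, adjusted p = 0.00106). Amacr and Scp2, which shorten the side chain in peroxisomes, fell by 1.40 and 1.99 on the log2 scale. In Hsd3b7 and Akr1c6 both BDL libraries lay below both controls, with the male one the lower. Cyp8b1, which makes the precursor of cholic acid, was at 159.6 and 128 CPM in the controls and 17.2 and 3.17 CPM after BDL, with the male BDL library below the female one (log2 fold change -3.80 ± 0.83, adjusted p = 0.026). Its call was lost without control replicate 1 (adjusted p = 0.159) and control replicate 2 (adjusted p = 0.111). Cyp7a1, the rate-limiting enzyme of the main route, was not called: it was at 102 and 40.6 CPM in the controls and 114 and 128 CPM after BDL (adjusted p = 0.338), and its control libraries differed more than 2-fold.

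Transport genes moved in both directions. Of 23 tested genes of bile acid, organic ion and lipid transport, 5 were higher and 9 lower. Refits gave 3 higher without control replicate 1 or control replicate 2. Importers on the blood side of the hepatocyte were among the lower genes. Slc10a1, the main bile acid importer, was at 195 and 137 CPM in the controls and 58.4 and 50.4 CPM after BDL (log2 fold change -1.61 ± 0.30, adjusted p = 0.00367). Slc22a7, an organic anion importer, was at 44.6 and 29.5 CPM in the controls and 2.83 and 5.35 CPM after BDL (log2 fold change -3.20 ± 0.40, adjusted p = 0.000577). Both were below both controls in each BDL library. Of the exporters back to blood, Abcc4 and Slc51b were higher, while Abcc3 was at 148 and 239 CPM in the controls and 401 and 321 CPM after BDL and not called (adjusted p = 0.0621). Abcc4 was at 5.15 and 7.20 CPM in the controls and 23.2 and 21.9 CPM after BDL (log2 fold change 1.87 ± 0.29, adjusted p = 0.00153). Slc51b, a subunit of the bile acid exporter OST, was at 0.0942 and 0.0643 CPM in the controls and 1.93 and 0.819 CPM after BDL (log2 fold change 4.08 ± 0.70, adjusted p = 0.0025). Abcb1a, a drug efflux pump, was at 1.51 and 1.67 CPM in the controls and 21.1 and 16.1 CPM after BDL (log2 fold change 3.55 ± 0.27, adjusted p = 2.3e-05). Both controls were near each other and both BDL libraries well above them in Abcc4, Slc51b and Abcb1a. Of the pumps of the bile canaliculus, Abcb11 and Abcc2 were not called and Abcg8 was lower. Abcb11, the bile salt export pump, was at 803 and 707 CPM in the controls and 668 and 550.5 CPM after BDL (adjusted p = 0.531). Abcc2, which exports conjugates, was at 1038 and 989 CPM in the controls and 694 and 959 CPM after BDL (adjusted p = 0.588). Abcg8, one part of the sterol pump into bile, was at 109 and 180.1 CPM in the controls and 28.1 and 48.6 CPM after BDL (log2 fold change -1.91 ± 0.36, adjusted p = 0.00414).

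Genes of amino acid breakdown fell. Of 42 tested genes of the urea cycle and amino acid catabolism, 26 were lower and 0 higher (median -0.95), and 7 of the calls held without each library. Refits gave 8 lower without control replicate 1, 11 lower without control replicate 2 and 14 lower without BDL replicate 2. The list's summed level was 17889.8 and 18556 CPM in the controls and 9794 and 8278 CPM after BDL. Tdo2, the first enzyme of tryptophan breakdown, was at 836 and 946 CPM in the controls and 269 and 183 CPM after BDL (log2 fold change -1.98 ± 0.35, adjusted p = 0.00307). Tat, the first of tyrosine breakdown, was at 1497 and 1697 CPM in the controls and 544 and 397 CPM after BDL (log2 fold change -1.76 ± 0.32, adjusted p = 0.0032). In Tdo2 and Tat the controls were close together and both BDL libraries far below them. The urea cycle gene Asl was at 608 and 564 CPM in the controls and 189 and 184 CPM after BDL (log2 fold change -1.65 ± 0.29, adjusted p = 0.00279). Cps1, the entry enzyme of the cycle, was at 4957 and 4667 CPM in the controls and 2633 and 2424 CPM after BDL and not called (adjusted p = 0.0889). Cps1 too was lower in each BDL library than in each control, without passing the test. The 5 hepatocyte markers summed to 31100 and 28900 CPM in the controls and 30770 and 25330 CPM after BDL. Albumin RNA (Alb) made up most of that sum, at 20768 and 19138 CPM in the controls and 23568 and 19513 CPM after BDL. Apoa1 overlapped between groups, while Ttr, Cps1 and Hnf4a were lower in each BDL library than in each control, Ttr at 1047 and 1206 CPM in the controls and 502 and 437 CPM after BDL (log2 fold change -1.26 ± 0.37, adjusted p = 0.0339). The Ttr call was lost without control replicate 1 (adjusted p = 0.12), control replicate 2 (adjusted p = 0.165), BDL replicate 1 (adjusted p = 0.0968) and BDL replicate 2 (adjusted p = 0.15). The part of hepatocyte content in this and the other metabolic results was not tested. Ass1, another urea cycle gene, is listed at 0 counts in all 4 wild-type libraries and was not tested.

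Genes of glucose, glycogen and fructose metabolism fell as well. Of 19 genes of gluconeogenesis, glycogen and fructose use, 10 were lower and 1 higher (median -1.03), and 3 of the lower calls held without each library. Refits gave 0 higher without any one library, 3 lower without control replicate 1, 4 lower without control replicate 2, 6 lower without BDL replicate 1 and 5 lower without BDL replicate 2. G6pc, the last step of glucose release, was at 959 and 871 CPM in the controls and 149.6 and 71.7 CPM after BDL (log2 fold change -3.05 ± 0.43, adjusted p = 0.000865). Gys2, the glycogen synthase of liver, was at 129 and 138 CPM in the controls and 41.4 and 46.5 CPM after BDL (log2 fold change -1.60 ± 0.30, adjusted p = 0.0036). Both BDL values of these genes lay below both controls. Pck1, the entry step of gluconeogenesis, was at 3429 and 3862 CPM in the controls and 1797 and 1193 CPM after BDL (adjusted p = 0.0363). The Pck1 call was lost without control replicate 1 (adjusted p = 0.145), control replicate 2 (adjusted p = 0.182), BDL replicate 1 (adjusted p = 0.0637) and BDL replicate 2 (adjusted p = 0.219). In glycolysis, the hexokinase gene Hk2, which is low in normal hepatocytes, was at 2.17 and 2.35 CPM in the controls and 7.77 and 8.73 CPM after BDL (log2 fold change 1.87 ± 0.27, adjusted p = 0.0011). The pyruvate kinase gene Pkm was at 12.1 and 14.1 CPM in the controls and 57.7 and 45.6 CPM after BDL (log2 fold change 1.98 ± 0.29, adjusted p = 0.00116). Pfkfb3, a regulator of phosphofructokinase, was lower at 179.8 and 97.2 CPM in the controls and 24.4 and 38.9 CPM after BDL (log2 fold change -2.13 ± 0.39, adjusted p = 0.00405). The glycolysis and hypoxia list had 5 higher and 2 lower of 29, with a median of 0.13. Refits gave 2 higher without control replicate 1 and 1 lower without control replicate 1, control replicate 2 or BDL replicate 2. Over the 25 members tested with FPKM the median was 0.12 from counts and -0.20 from FPKM.

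Fatty acid oxidation and ketogenesis had 17 lower and 1 higher of 33 genes (median -0.97). Refits gave 7 lower without control replicate 1 and 9 lower without control replicate 2 or BDL replicate 2. Eci2, an isomerase of unsaturated fatty acid breakdown, was at 95.1 and 112 CPM in the controls and 29.0 and 18.3 CPM after BDL (log2 fold change -2.13 ± 0.28, adjusted p = 0.000661). The one higher gene was the acyl-CoA thioesterase gene Acot3, which had 0 counts in both controls and was at 0.877 and 0.382 CPM after BDL. Fatty acid and triglyceride synthesis was mixed, with 2 higher and 6 lower of 26. Refits gave 3 lower without control replicate 1 or control replicate 2. The desaturase gene Scd2 was at 3.86 and 3.79 CPM in the controls and 26.9 and 26.6 CPM after BDL (log2 fold change 2.81 ± 0.34, adjusted p = 0.000415). The lipid droplet gene Pnpla3 was at 0.377 and 0.611 CPM in the controls and 3.42 and 7.31 CPM after BDL (log2 fold change 3.42 ± 0.54, adjusted p = 0.00163). Lpin1, a phosphatidate phosphatase, fell to 190.3 and 327 CPM from 981 and 1026 CPM (log2 fold change -1.96 ± 0.36, adjusted p = 0.00359). Of 24 genes of sterol synthesis and uptake, 11 were higher and 0 lower (median 0.83). With total-count scaling 0 were called (median 0.63), as with FPKM at + 1 (median 0.35) and + 0.1 (median 0.38). Refits gave 7 higher without control replicate 1, 3 higher without control replicate 2 and 1 lower without BDL replicate 1. Hmgcs1, an early enzyme of the pathway, was at 116 and 81.7 CPM in the controls and 378 and 283 CPM after BDL (log2 fold change 1.74 ± 0.29, adjusted p = 0.00234). Sqle and Lss, which act in sequence to close the sterol ring, had log2 fold changes of 1.502 ± 0.29 and 1.45 ± 0.22.

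Of 20 transcription factors of hepatocyte identity, 5 were lower and 0 higher (median -0.43). Refits gave 2 lower without control replicate 1 and 3 lower without control replicate 2, BDL replicate 1 or BDL replicate 2. Klf15, a fasting-responsive regulator of amino acid use, was at 184 and 169 CPM in the controls and 44.0 and 49.0 CPM after BDL (log2 fold change -1.92 ± 0.23, adjusted p = 0.000379). Ppara, the fatty acid sensor, was at 222 and 202 CPM in the controls and 87.4 and 60.2 CPM after BDL (log2 fold change -1.52 ± 0.29, adjusted p = 0.00437). Hnf4a, the central hepatocyte factor, was at 515 and 492 CPM in the controls and 314 and 355 CPM after BDL and not called (adjusted p = 0.147). Genes of both ends of the lobule fell in wild type. Of 15 tested periportal genes, 9 were lower and 0 higher (median -1.10). Refits gave 4 lower without control replicate 1. Of 16 pericentral genes, 8 were lower and 0 higher (median -1.01). Refits gave 4 lower without control replicate 1 or BDL replicate 2. Cyp2e1, the ethanol-oxidizing enzyme of the pericentral zone, was at 2803 and 2640.0 CPM in the controls and 598 and 478 CPM after BDL (log2 fold change -2.34 ± 0.39, adjusted p = 0.0023). Slc1a2, a glutamate importer of the same zone, was at 176 and 151 CPM in the controls and 43.4 and 24.9 CPM after BDL (log2 fold change -2.25 ± 0.30, adjusted p = 0.000677). All 16 pericentral genes had negative log2 fold changes. In the libraries labelled HO-1 deleted, 12 of them were lower and 0 higher (median -1.39). Of the 15 periportal genes there, 2 were lower and 2 higher (median -0.23). The shares of all tested genes there were 15.1% higher and 12.4% lower. The largest periportal fall in wild type was that of G6pc, so that the periportal list shares a member with the glucose list above. Among called genes the largest fall in CPM was that of the protease inhibitor gene Serpina3k, from 7629.5 and 6869 to 1075 and 655 CPM (log2 fold change -3.07 ± 0.51, adjusted p = 0.00206). The largest rise in CPM was that of the complement gene C3, from 7182 and 6712 to 22608 and 17896 CPM (adjusted p = 0.0306). Its call was lost without control replicate 1 (adjusted p = 0.221), control replicate 2 (adjusted p = 0.21), BDL replicate 1 (adjusted p = 0.141) and BDL replicate 2 (adjusted p = 0.066).

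Acute-phase genes moved in both directions. Of 34 members, 8 were higher and 4 lower (median 0.70). Refits gave 2 lower without control replicate 1 or control replicate 2. Orm2 and Orm3, plasma carrier proteins whose promoters are printed above, both rose. Orm2 was at 5.71 and 6.72 CPM in the controls and 166 and 101 CPM after BDL (log2 fold change 4.42 ± 0.63, adjusted p = 0.00202). Orm3 was at 2.76 and 2.12 CPM in the controls and 22.7 and 31.8 CPM after BDL (log2 fold change 3.47 ± 0.29, adjusted p = 4.45e-05). Neither overlapped between groups. Saa2, a serum amyloid gene of the acute phase, was at 44.5 and 30.0 CPM in the controls and 258 and 168 CPM after BDL (log2 fold change 2.52 ± 0.37, adjusted p = 0.00105). Saa4, the constitutive member of that family, was at 308 and 285 CPM in the controls and 76.4 and 54.9 CPM after BDL (log2 fold change -2.18 ± 0.27, adjusted p = 0.000448). Saa2 lay above and Saa4 below both controls in each BDL library. Hamp, which encodes the iron hormone hepcidin, was at 21.6 and 23.1 CPM in the controls and 116 and 76.9 CPM after BDL (log2 fold change 2.11 ± 0.28, adjusted p = 0.000598). Serpina3m fell from 856 and 455 to 148 and 131 CPM (log2 fold change -2.23 ± 0.38, adjusted p = 0.00233), though reads of this inhibitor family may be shared among copies.

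Genes of bile duct cells and of the ductular reaction rose from low levels. Of 25 tested members, 19 were higher and 0 lower (median 2.41), and 12 of the calls held without each library. The 5 bile duct markers summed to 3.61 and 7.65 CPM in the controls and 36.0 and 50.8 CPM after BDL. Elf3, an epithelial transcription factor, was at 0.314 and 1.06 CPM in the controls and 23.0 and 22.2 CPM after BDL (log2 fold change 5.03 ± 0.56, adjusted p = 0.000426). Cldn4, a tight junction protein of ducts, was at 0.0628 and 0 CPM in the controls and 1.55 and 1.69 CPM after BDL (log2 fold change 5.48 ± 0.75, adjusted p = 0.000773). Both went from about 1 CPM or less to above it in each BDL library. The duct keratin gene Krt7 was at 0.439 and 0.772 CPM in the controls and 6.02 and 5.02 CPM after BDL (log2 fold change 3.18 ± 0.50, adjusted p = 0.00163). Sox9, a duct and progenitor factor, was at 1.76 and 4.34 CPM in the controls and 15.8 and 29.6 CPM after BDL (log2 fold change 2.89 ± 0.42, adjusted p = 0.00116). Krt7 was at a like level in both BDL libraries, and Sox9 was higher in the male one. Krt8 and Krt18, the keratins that hepatocytes also make, were far more abundant, Krt8 at 80.4 and 89.2 CPM in the controls and 484 and 419 CPM after BDL (log2 fold change 2.41 ± 0.28, adjusted p = 0.00035).

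The cytoskeleton rose broadly: 19 of 29 tested actin and tubulin genes were higher and 0 lower, all 29 had positive fold changes, and the median was 1.26. Refits gave 9 higher without control replicate 1. Tpm4, a tropomyosin, was at 13.1 and 16.6 CPM in the controls and 58.4 and 57.8 CPM after BDL (log2 fold change 1.97 ± 0.23, adjusted p = 0.000354). The tubulin gene Tubb6 was at 1.98 and 1.99 CPM in the controls and 11.9 and 10.4 CPM after BDL (log2 fold change 2.48 ± 0.33, adjusted p = 0.0007). Among integrins, the receptors that hold cells to matrix and to each other, 11 of 23 were higher and 0 lower (median 0.96). Refits gave 6 higher without control replicate 1. Itgb6, an epithelial subunit that activates latent TGF-beta, was at 0.0628 and 0.0643 CPM in the controls and 1.90 and 2.67 CPM after BDL (log2 fold change 5.06 ± 0.59, adjusted p = 0.000379). Itga2, a collagen receptor subunit, was at 0.188 and 0.579 CPM in the controls and 6.25 and 3.93 CPM after BDL (log2 fold change 3.73 ± 0.54, adjusted p = 0.00103). Both went from under 1 CPM in each control to above it in each BDL library.

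Matrix turnover genes rose on both the degrading and the inhibiting side. Of 29 tested proteases and inhibitors, 20 were higher and 0 lower (median 1.57). Refits gave 9 higher without control replicate 1, 11 higher without control replicate 2 and 13 higher without BDL replicate 1. Timp1, an inhibitor of matrix metalloproteinases, was at 0.0314 and 0.0321 CPM in the controls and 2.92 and 1.69 CPM after BDL (log2 fold change 6.01 ± 0.71, adjusted p = 0.000392), so that its controls rest on about 1 count each. Mmp7, a protease of duct epithelium, was at 0.0314 and 0.161 CPM in the controls and 2.05 and 1.36 CPM after BDL (log2 fold change 4.11 ± 0.68, adjusted p = 0.00209). Mmp14, a membrane-bound collagenase, was at 19.0 and 24.2 CPM in the controls and 78.1 and 56.2 CPM after BDL (log2 fold change 1.64 ± 0.25, adjusted p = 0.00125). For all 3 genes the female BDL library was the higher one. Plat, the tissue plasminogen activator, was at 0.534 and 0.354 CPM in the controls and 6.34 and 2.62 CPM after BDL (log2 fold change 3.34 ± 0.47, adjusted p = 0.000895). Of 22 enzymes that assemble matrix, 10 were higher and 0 lower (median 1.03). Refits gave 3 higher without control replicate 1 or control replicate 2 and 4 higher without BDL replicate 1. Lox, which crosslinks collagen, was at 0.251 and 0.289 CPM in the controls and 4.35 and 4.59 CPM after BDL (log2 fold change 4.02 ± 0.46, adjusted p = 0.000314). The transglutaminase gene Tgm2 was at 85.3 and 79.4 CPM in the controls and 314 and 229 CPM after BDL (log2 fold change 1.72 ± 0.29, adjusted p = 0.00239). Neither gene overlapped between groups. Of the collagen genes, Col1a1 was at 19.0 and 27.6 CPM in the controls and 475 and 518 CPM after BDL (log2 fold change 4.41 ± 0.48, adjusted p = 0.000286). Col3a1, 1 of the 10 largest rises in CPM, was at 87.0 and 90.2 CPM in the controls and 627 and 574 CPM after BDL (log2 fold change 2.76 ± 0.43, adjusted p = 0.00152).

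In the TGF-beta pathway, which drives scarring, 15 of 33 genes were higher and 0 lower (median 0.56). Refits gave 7 higher without control replicate 1 or control replicate 2. The ligand gene Tgfb2 was at 0.785 and 0.450 CPM in the controls and 4.47 and 3.38 CPM after BDL (log2 fold change 2.67 ± 0.39, adjusted p = 0.00111). The ligand gene Tgfb1 was at 4.58 and 5.21 CPM in the controls and 11.05 and 15.5 CPM after BDL, and its call (adjusted p = 0.00354) was lost without control replicate 1 (adjusted p = 0.0527). Ltbp2, a matrix protein of the latent TGF-beta binding protein family, was at 2.13 and 2.38 CPM in the controls and 19.3 and 15.7 CPM after BDL (log2 fold change 2.96 ± 0.27, adjusted p = 8.16e-05). Targets of YAP and TEAD, the pathway that senses stretch and growth, had 8 higher and 0 lower of 20 (median 0.72). Refits gave 4 higher without control replicate 1 and 3 higher without control replicate 2. Ankrd1, a classical target, was at 0.251 and 0.225 CPM in the controls and 4.88 and 9.44 CPM after BDL (log2 fold change 4.87 ± 0.47, adjusted p = 0.000126). Of 12 tested EGF family genes, 3 were higher and 1, the receptor gene Egfr, was lower, with a median of 0.34. Refits gave 0 lower without control replicate 1 and 2 lower without BDL replicate 1. Over the 5 members that were also tested with FPKM the median was -0.18 from counts and -0.42 from FPKM. The ligand gene Nrg1 was at 1.22 and 1.38 CPM in the controls and 19.9 and 23.0 CPM after BDL (log2 fold change 4.04 ± 0.28, adjusted p = 1.11e-05). The ligand gene Hbegf was at 0.659 and 0.772 CPM in the controls and 5.44 and 4.09 CPM after BDL (log2 fold change 2.73 ± 0.37, adjusted p = 0.0007). Of 25 tested PDGF, FGF, HGF and VEGF genes, 6 were higher and 3 lower, with a median of 0.50. Refits gave 3 higher without control replicate 1 and 1 lower without control replicate 1 or BDL replicate 2. Over 21 members tested with FPKM the median was 0.10 from counts and -0.16 from FPKM. Pdgfb, a mitogen of stellate cells, was at 1.07 and 0.643 CPM in the controls and 4.82 and 5.73 CPM after BDL (log2 fold change 2.61 ± 0.37, adjusted p = 0.000934). The growth factor gene Fgf1 was at 70.7 and 50.2 CPM in the controls and 18.3 and 13.2 CPM after BDL (log2 fold change -1.94 ± 0.26, adjusted p = 0.000696).

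Stellate cells are the main source of scar matrix. Of 18 tested stellate cell and myofibroblast genes, 8 were higher and 0 lower (median 1.07). Refits gave 2 higher without control replicate 1, 4 higher without control replicate 2 or BDL replicate 1 and 1 lower without BDL replicate 1. Vim, an intermediate filament gene also made by other mesenchymal cells, was at 9.98 and 12.2 CPM in the controls and 61.2 and 49.7 CPM after BDL (log2 fold change 2.32 ± 0.27, adjusted p = 0.000333). The PDGF receptor gene Pdgfra was at 8.63 and 8.68 CPM in the controls and 26.0 and 17.4 CPM after BDL (log2 fold change 1.33 ± 0.25, adjusted p = 0.0044). Acta2, the smooth muscle actin of myofibroblasts, was at 2.26 and 2.99 CPM in the controls and 6.49 and 6.82 CPM after BDL (adjusted p = 0.0338). This call was lost without control replicate 1 (adjusted p = 0.234), control replicate 2 (adjusted p = 0.0879), BDL replicate 1 (adjusted p = 0.0758) and BDL replicate 2 (adjusted p = 0.0732). Des, another stellate cell filament gene, was at 2.32 and 3.76 CPM in the controls and 4.79 and 4.97 CPM after BDL and not called (adjusted p = 0.19). The stellate cell marker genes Lrat, which stores vitamin A, and Reln, a matrix glycoprotein, overlapped between groups, with the male BDL library below both controls. Lrat was at 10.5 and 6.98 CPM in the controls and 12.5 and 3.66 CPM after BDL, and Reln at 100.0 and 81.6 CPM in the controls and 129.7 and 62.7 CPM after BDL. The 4 stellate cell markers Des, Lrat, Pdgfrb and Reln summed to 124 and 104.5 CPM in the controls and 179 and 95.4 CPM after BDL, and thus also overlapped. Of 18 endothelial genes, 1 was higher and 1 lower (median -0.16). Each is 5.56%, against 11.8% higher and 6.59% lower of all tested genes. Refits gave 0 higher without control replicate 1, control replicate 2 or BDL replicate 1, 2 higher without BDL replicate 2 and 2 lower without BDL replicate 1. The lower one was Ehd3, a membrane-trafficking gene of sinusoidal endothelium, at 75.5 and 75.8 CPM in the controls and 33.2 and 17.1 CPM after BDL (log2 fold change -1.58 ± 0.29, adjusted p = 0.00367).

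Genes of myeloid cells, which the Cre allele targets, rose. Of 20 genes of myeloid identity, 15 were higher and 0 lower, all 20 had positive fold changes, and the median was 1.596. Refits gave 5 higher without control replicate 1 and 9 higher without control replicate 2 or BDL replicate 1. Their summed level was 251 and 250.2 CPM in the controls and 678 and 419 CPM after BDL, replicate 1 first. The higher BDL value was that of the female library. Lyz2, the Cre locus, was at 11.6 and 8.04 CPM in the controls and 27.3 and 13.2 CPM after BDL and not called (adjusted p = 0.0757). Of 18 tested genes of monocytes and recruited macrophages, 15 were higher and 0 lower (median 2.92). Refits gave 2 lower without BDL replicate 1. Cx3cr1, the fractalkine receptor, was at 0.283 and 0.450 CPM in the controls and 8.12 and 4.75 CPM after BDL (log2 fold change 4.13 ± 0.40, adjusted p = 0.000138). F13a1, a clotting factor subunit of monocytes, was at 0.283 and 0.643 CPM in the controls and 5.46 and 5.73 CPM after BDL (log2 fold change 3.59 ± 0.46, adjusted p = 0.000582). Gpnmb, a glycoprotein of lipid-laden macrophages, was at 0.188 and 0.739 CPM in the controls and 5.90 and 9.83 CPM after BDL (log2 fold change 4.06 ± 0.52, adjusted p = 0.000729). These genes were below 1 CPM in both controls and above 4 CPM in both BDL libraries. At a minimum of 10 CPM, 5 members of the monocyte list were left, of which 2 were called higher (median 0.29). The summed level of the whole list overlapped between groups, at 3635 and 3151 CPM in the controls and 4118 and 3432 CPM after BDL.

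Of 18 resident Kupffer cell genes, 3 were higher and 0 lower (median 0.51). The higher share is 16.7%, against 11.8% of all tested genes. Refits gave 1 lower without BDL replicate 1 or BDL replicate 2. The scavenger receptor gene Marco was at 8.32 and 7.88 CPM in the controls and 35.7 and 51.5 CPM after BDL (log2 fold change 2.43 ± 0.32, adjusted p = 0.000587). Of the other 4 Kupffer cell markers, the complement receptor gene Vsig4 was at 9.70 and 8.52 CPM in the controls and 22.9 and 12.4 CPM after BDL (log2 fold change 0.96 ± 0.30, adjusted p = 0.047). Its call was lost without control replicate 1 (adjusted p = 0.172), control replicate 2 (adjusted p = 0.22) and BDL replicate 1 (adjusted p = 0.367). Cd5l, a secreted macrophage protein, was at 82.1 and 58.9 CPM in the controls and 175 and 139 CPM after BDL and not called (adjusted p = 0.0691), with both BDL libraries above both controls. Clec4f, a lectin of Kupffer cells, and Timd4, a receptor for dying cells, overlapped between groups. Clec4f was at 91.6 and 69.5 CPM in the controls and 108 and 60.9 CPM after BDL, and Timd4 at 4.33 and 6.20 CPM in the controls and 5.93 and 4.48 CPM after BDL. Of 16 neutrophil genes, 10 passed the filter and 5 were higher and 0 lower (median 2.40). Refits gave 3 higher without control replicate 1 or BDL replicate 1. The growth factor receptor gene Csf3r was at 3.83 and 5.27 CPM in the controls and 16.4 and 15.2 CPM after BDL (log2 fold change 1.79 ± 0.28, adjusted p = 0.00159). The other neutrophil markers were low. S100a9 was at 0.785 and 0.707 CPM in the controls and 7.95 and 2.18 CPM after BDL (adjusted p = 0.00429). S100a8 went from 0.0628 and 0.289 to 1.81 and 0.328 CPM, and Ly6g from 0.283 and 0.129 to 0.322 and 0.382 CPM. Mpo did not pass the filter. Of 17 lymphocyte genes, 10 passed the filter and none was called (median 0.14). Of the others, 6 did not pass it and 1 was not in the count table. Refits gave 1 lower without BDL replicate 1.

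Stress-responsive and cell division genes rose. Of 25 tested immediate-early genes, which are switched on within minutes of a stimulus, 8 were higher and 0 lower (median 0.93). Refits gave 4 higher without control replicate 1 and 5 higher without control replicate 2 or BDL replicate 2. Atf3, a stress-induced transcription factor, was at 2.13 and 1.06 CPM in the controls and 15.3 and 15.4 CPM after BDL (log2 fold change 3.26 ± 0.50, adjusted p = 0.00185). Klf6, a zinc finger factor, was at 7.19 and 5.01 CPM in the controls and 35.6 and 30.5 CPM after BDL (log2 fold change 2.44 ± 0.25, adjusted p = 0.000175). Of 40 cell cycle genes, 25 were higher and 0 lower (median 1.54). Refits gave 7 higher without control replicate 1 and 10 higher without control replicate 2. Ccnd1, the cyclin that starts the cycle, was at 8.88 and 6.40 CPM in the controls and 67.9 and 47.6 CPM after BDL (log2 fold change 2.92 ± 0.26, adjusted p = 7.81e-05). Tpx2, a spindle assembly factor, was at 1.07 and 1.54 CPM in the controls and 9.03 and 11.4 CPM after BDL (log2 fold change 2.96 ± 0.44, adjusted p = 0.00113). Both BDL libraries were above both controls in these genes, with the female one higher for Ccnd1 and the male one for Tpx2. Mki67, the common proliferation marker, was at 15.3 and 17.7 CPM in the controls and 47.8 and 132 CPM after BDL and not called (adjusted p = 0.107), with a wide gap between the BDL libraries.

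Of 22 tested p53 and growth arrest genes, 9 were higher and 2 lower (median 0.75). Refits gave 3 higher without control replicate 1, 4 higher without control replicate 2 and 1 lower without control replicate 1 or BDL replicate 2. Pmaip1, a cell death gene, was at 0.345 and 0.289 CPM in the controls and 1.84 and 2.35 CPM after BDL (log2 fold change 2.69 ± 0.47, adjusted p = 0.00276). Trp53inp1, a p53 partner, was at 109 and 119.6 CPM in the controls and 46.8 and 35.2 CPM after BDL (log2 fold change -1.48 ± 0.25, adjusted p = 0.00252). Of 29 tested NRF2 and glutathione genes, 11 were higher and 2 lower, with a median of 0.40. For the 28 members tested with FPKM the median was 0.39 from counts and -0.04 from FPKM. Refits gave 6 higher without control replicate 2 and 1 lower without control replicate 1, control replicate 2 or BDL replicate 2. The regulator gene Nfe2l2 was at 46.2 and 53.1 CPM in the controls and 116 and 141 CPM after BDL (log2 fold change 1.37 ± 0.22, adjusted p = 0.00186). Its target Nqo1 was at 1.005 and 0.836 CPM in the controls and 7.42 and 2.89 CPM after BDL (log2 fold change 2.50 ± 0.46, adjusted p = 0.00341). The secreted peroxidase gene Gpx3 was at 1.10 and 1.03 CPM in the controls and 8.65 and 5.46 CPM after BDL (log2 fold change 2.73 ± 0.35, adjusted p = 0.000584). In Nqo1 and Gpx3 the female BDL library was the higher one. Hmox1 was at 6.22 and 7.46 CPM in the controls and 26.0 and 24.0 CPM after BDL (log2 fold change 1.87 ± 0.24, adjusted p = 0.000577). The libraries labelled HO-1 deleted were at 22.5 and 29.9 CPM without and 72.3 and 95.5 CPM with BDL. The interferon list had 2 higher and 4 lower of 32 (median -0.54). Refits gave 1 higher without control replicate 1, control replicate 2 or BDL replicate 2, 0 lower without control replicate 1, 2 lower without BDL replicate 1 and 7 lower without BDL replicate 2. The regulator Irf1 was higher, at 18.1 and 18.7 CPM in the controls and 41.0 and 52.4 CPM after BDL (log2 fold change 1.34 ± 0.24, adjusted p = 0.00294). Of the genes in the study's title, Lnx1 was at 10.5 and 9.55 CPM in the controls and 8.12 and 18.2 CPM after BDL (adjusted p = 0.562) and overlapped between groups. Notch1 was at 40.1 and 57.2 CPM in the controls and 75.1 and 68.3 CPM after BDL (adjusted p = 0.138), and neither was called. Rpl22, the RiboTag locus, was at 44.3 and 84.6 CPM in the controls and 109.9 and 58.7 CPM after BDL, again with overlap (adjusted p = 0.503).

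Of 27 tested Wnt pathway genes, 3 were higher and 1 lower (median -0.11). These are 11.1% and 3.7%, against 11.8% and 6.59% of all tested genes. Refits gave 1 higher without control replicate 1 and 0 lower without control replicate 1. The Wnt inhibitor gene Sfrp1 was at 0.659 and 0.932 CPM in the controls and 4.33 and 4.80 CPM after BDL (log2 fold change 2.51 ± 0.39, adjusted p = 0.00158). Of 19 circadian clock genes, 3 were lower and 0 higher (median -0.15). Refits gave 1 lower without control replicate 1, BDL replicate 1 or BDL replicate 2 and 0 lower without control replicate 2. Of 22 tested claudins and cell junction genes, 5 were higher and 2 lower, with a median of 0.34. Refits gave 2 higher without control replicate 1 or control replicate 2, 3 higher without BDL replicate 1 or BDL replicate 2 and 0 lower without any one library. For the 21 members tested with FPKM the median was 0.33 from counts and -0.06 from FPKM. Of 26 apolipoprotein and lipoprotein genes, 3 were higher and 3 lower (median -0.31). Each is 11.5%, against 11.8% higher and 6.59% lower of all tested genes. Refits gave 1 higher without control replicate 1, control replicate 2 or BDL replicate 1 and 1 lower without control replicate 1 or BDL replicate 2. Of 26 secreted plasma proteins, 1 was higher and 4 lower (median -0.51). Refits gave 0 lower without control replicate 1, 2 lower without control replicate 2 or BDL replicate 1 and 1 lower without BDL replicate 2.

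The second BDL experiment, in the libraries labelled HO-1 deleted, shares no library with the first. RN45S took 22.6% to 66.8% of its counts, against 10.3% to 37.1% in wild type. Its shallowest library, BDL replicate 2, held 3.25 M counts of other genes and 11021 genes with at least 10 counts. Of the 1675 genes higher in wild type, 1251 were higher there too, which is 74.7% of the wild-type calls and 58.5% of the others, and of the 932 lower genes 609 were lower there, 65.3% and 34.7%. All 12 genes with the largest rises and 11 of the 12 with the largest falls were called the same way. The test of the difference between the responses called 1 gene, 0.00707% of those tested, and 1316 genes had an unadjusted p under 0.05. Without BDL replicate 1, the female library, 195 genes were called, without BDL replicate 2 it was 11, without control replicate 1 it was 1 and without control replicate 2 it was 0. The gene called with all libraries was Tmc5, a transmembrane channel-like gene (chromosome 7, 118597297 to 118675085, mm10), named after its values were seen. Tmc5 was at 0.0628 and 0.0964 CPM in the controls and 13.4 and 17.6 CPM after BDL in wild type (log2 fold change 7.53 ± 0.49, adjusted p = 8.29e-06). In the libraries labelled HO-1 deleted it was at 0.385 and 0.402 CPM without and 0.928 and 1.99 CPM with BDL (1.62 ± 0.46, adjusted p = 0.0228). The difference of the 2 log2 fold changes was -5.90 ± 0.70 (adjusted p = 0.0387).

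For a pair of lists the responses are set side by side. The difference was not called for any of their members. Of the sterol synthesis genes, 11 were higher and 0 lower in wild type, against 2 higher and 3 lower in those labelled HO-1 deleted, with medians of 0.83 and 0.23. Hmgcs1 had a log2 fold change of 1.74 ± 0.29 in wild type and of 0.21 there (adjusted p = 0.605). Idi1, a later enzyme of the pathway, was at 1.35 ± 0.41 in wild type and at -1.35 ± 0.47, adjusted p = 0.0493 there. Its wild-type call was lost without control replicate 1 (adjusted p = 0.167), control replicate 2 (adjusted p = 0.186) and BDL replicate 1 (adjusted p = 0.249). Of the amino acid catabolism genes, 26 were lower in wild type and 11 there, with medians of -0.95 and -0.36. Summed over this list, levels without BDL were 17889.8 and 18556 CPM in wild type, against 12819 and 12224.5 CPM there. After BDL the sums were 9794 and 8278 CPM in wild type and 9919 and 9740 CPM there. The sums of the 2 labelled genotypes thus lay further apart without BDL than after it. The log2 fold change of Asl was -1.65 ± 0.29 in wild type and -0.23 there, and that of the serine dehydratase gene Sds -1.73 ± 0.29 and -0.19.

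**Figure D4:**
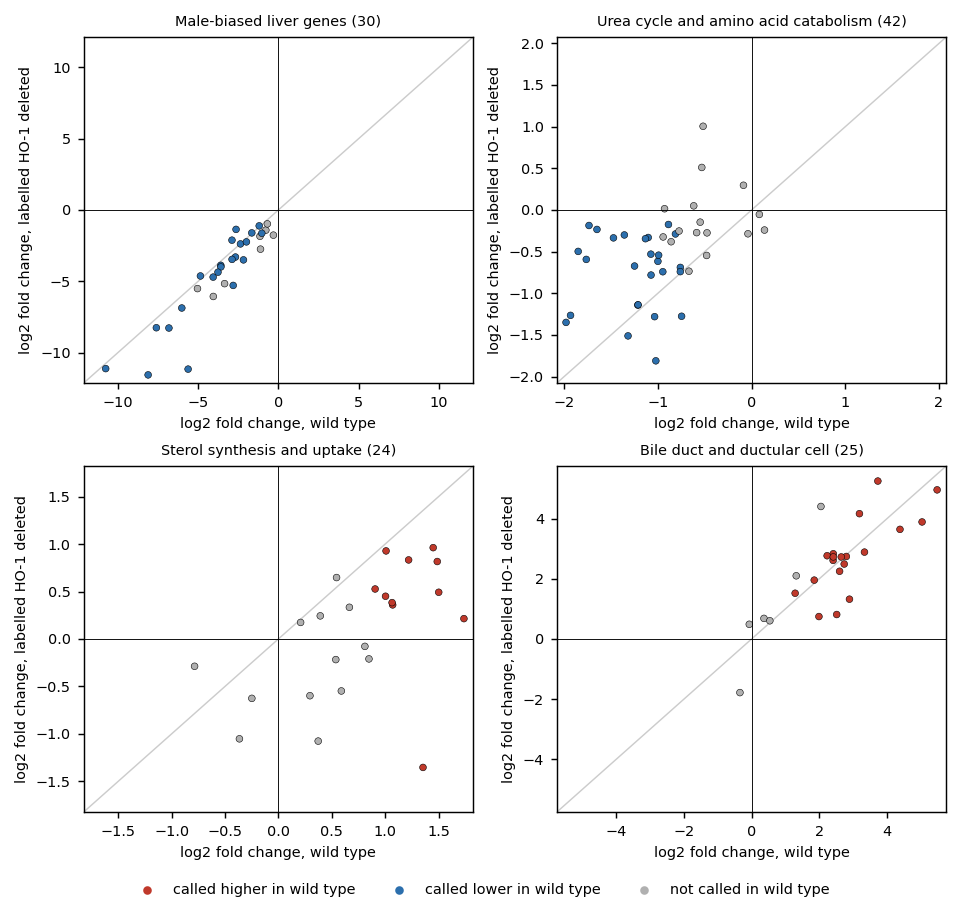
Log2 fold change after BDL in wild type (horizontal) against the libraries labelled HO-1 deleted (vertical) for the tested members of 4 lists, 1 point per gene, coloured by the wild-type call, with the diagonal in grey. Male-biased and bile duct genes lie near the diagonal, while most sterol synthesis and amino acid genes lie closer to 0 on the vertical axis, with medians of 0.23 and -0.36 there.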

How the data were processed

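RNA was sequenced from 8 mouse liver libraries, 2 in each of 4 groups, with ribosomal RNA depletion and a strand-specific library kit, per the labels' protocols. The authors deposited raw read counts per gene and FPKM per gene (fragments scaled by gene length and library size), with build mm10, Cufflinks and STAR 2.7.3a listed, without their roles, per the submitters' processing notes. Which tool counted the reads, and whether by strand, is not given in the sources used here. Symbols matched the reference for 99.5% of 24982 genes.

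Counts were fitted in edgeR 4.0.16 (R 4.3.3) with TMM scaling, filterByExpr and a robust quasi-likelihood test over all 8 libraries and 4 group means (4 residual degrees of freedom, common biological coefficient of variation 23.0%), with Benjamini-Hochberg adjustment over 14147 genes. The alternatives were DESeq2 1.42.0, total-count scaling, RN45S left out of library sizes or added as a covariate, no filter, a minimum of 10 CPM, the 4 wild-type libraries alone, a non-robust dispersion, limma 3.58.1 on log2(FPKM + 1) and log2(FPKM + 0.1) for genes with a mean FPKM of at least 0.5, and each wild-type library left out. The fit was tested on simulated data. By raw counts scaled to library totals, with RN45S included, each group's 2 libraries differed by more than sampling noise. The part of RN45S in this was not tested.

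Named genes are the 12 largest rises and falls (adjusted p under 0.05, mean log2 CPM of at least 2, no overlap), the 10 largest rises and falls in CPM, up to 4 members of each list with the smallest adjusted p, members whose role the text describes, and Hmox1, Lnx1, Notch1, Lyz2 and Rpl22. RN45S, predicted genes, clone names, Y-linked genes and the like were left out of the first 2 sets. Members and lists were chosen with earlier results of these data known. Lists are described by counts and medians, without a test of the list. Single values of the Mup, Orm, Serpina1, Serpina3, Cyp2c, Cyp3a, Cyp4a, Ugt2b and Gst families are uncertain, because reads may be split between near-identical copies. Some genes that these rules name are not reported here.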

Additional observations from a re-analysis of the deposited data

Results flagged for a closer look

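The response of Tmc5 to BDL differed between the labelled genotypes by the test of the difference itself: the log2 fold change in the libraries labelled HO-1 deleted minus that in wild type was -5.90 ± 0.70 (adjusted p = 0.0387 in edgeR's quasi-likelihood test). Tmc5 rose in both BDL libraries of wild type, the female and the male one, to 13.4 and 17.6 CPM. With edgeR, no gene passed the test of the difference with the RN45S share as a covariate, at a minimum of 10 CPM, with the non-robust dispersion or without control replicate 2. In these fits 1263, 724, 1310 and 900 genes had an unadjusted p under 0.05. DESeq2 called 84 genes for the difference.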

How the results depend on the processing

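No paired analysis was possible because the labels give the groups no shared replicate numbers. The 2607 calls became 550 with total-count scaling (366 higher, 184 lower), 1360 at a minimum of 10 CPM (793 higher, 567 lower), 454 with log2(FPKM + 1) (156 higher, 298 lower) and 353 with log2(FPKM + 0.1) (129 higher, 224 lower), and 881 to 2224 with 1 wild-type library left out (553 to 1513 higher, 328 to 757 lower). With RN45S left out of library sizes they were 2589, and with its share as a covariate 2212. The single gene called for the difference between responses became 84 genes with DESeq2, 7 with total counts, 0 with the RN45S covariate, 138 with no filter, 0 at a minimum of 10 CPM, 0 with a non-robust dispersion, 13 and 8 with FPKM + 1 and + 0.1, and 0 to 195 with 1 library left out. The changed signs among named genes were those of genes not called. Leaving out 1 library gave log2 fold changes of -0.30 (without BDL replicate 2) to 0.85 (without BDL replicate 1) for Lnx1, -0.14 (without BDL replicate 1) to 0.94 (without control replicate 2) for Rpl22, with -0.01 without control replicate 1, -1.11 to 0.28 for Gstp2, -0.085 to 2.28 for Cux2 and -3.40 to 1.66 for Cyp2a4, whose end values were those without BDL replicates 1 and 2. Cyp2a4 was also at -1.20 with the RN45S covariate. Of the 221 called among 252 named genes, 101 lost their call with total counts, 52 without control replicate 1, 13 with the RN45S covariate and 0 with DESeq2. Of the 191 that were also tested with FPKM, 88 and 97 lost it at + 1 and + 0.1. Counts of called list members fell too. The amino acid list went from 26 to 2 with total counts and to 3 with FPKM + 1. Myeloid identity went from 15 to 2 and 2, matrix assembly from 10 to 1 and 0, and the stellate list from 8 to 1 and 1. The male-biased list stayed at 22 in both. FPKM tested fewer members of some lists. The cause of these changes was not tested. With 2 libraries a group, low genes such as Timp1 and Slc51b rest on a few counts in the controls.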
